A study of Mus musculus with 25 samples.

Results

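The genes examined for the repressive histone mark H3K27me3 in mouse cells were 10 whose products give a fibroblast its surface receptors, its extracellular matrix and its contractile fibres. They were Pdgfra, Pdgfrb, Thy1, Fn1, Postn, Lum, Dcn, Fbln2, Acta2 and Tagln, 10 of the 20665 autosomal protein-coding gene records of mouse build mm10, and were taken by name as a list of known fibroblast genes. For each gene the sequence under H3K27me3 peaks was measured over the gene record, from its lowest to its highest annotated base, with 5 kb added on each side. This stretch is called the window of the gene.

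The study followed the mark in neural progenitor cells grown out of embryonic stem cells (NPC) and in lines A and B of mouse embryonic fibroblasts (MEF) immortalized with c-myc. The NPC were wild type and gave 6 CUT&RUN libraries, 2 each from untreated cells, from cells given 2 uM UNC1999 with 4 uM A395 (inhibitors of Polycomb repressive complex 2, PRC2), and from cells after both compounds were washed out. The fibroblasts gave 12 H3K27me3 ChIP-seq libraries, 2 per state and line. Line A was wild type, Ezh2 -/-, or Ezh2 -/- with Ezh2 returned by the retrovirus pMSCV-Ezh2, and line B was wild type, Ezh2 -/- in a reversible form, or rescued at the endogenous Ezh2 gene. A further 7 libraries (RNA polymerase II, H3K4me3, H3K36me3 and 1 input) are labelled as line A Ezh2 -/-, under titles that name Ezh2 without stating its loss, and their signal is not analysed here.

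The data used were 3 peak lists, 1 per cell system, with 86235 peaks over 276.2 Mb (line A), 81972 over 235.7 Mb (line B) and 44807 over 136.9 Mb (NPC). They hold positions and no heights, so no depth can be given for a peak. Each MEF list is named for both wild-type and Ezh2 -/- libraries of its line, and the NPC list names no treatment, so the effects of Ezh2 loss, rescue, inhibition and washout on these genes are not compared here. With 1 list per cell system there is no replicate check and no p value, a missing peak is not a measured absence of the mark, and assay and cell type cannot be told apart between NPC and MEF.

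H3K27me3 is placed by PRC2, whose catalytic subunit is usually EZH2, and marks genes that are kept silent, often regulators of other lineages and tissue-specific genes with CpG-rich promoters. Fibroblasts are mesenchymal cells that receive platelet-derived growth factor (PDGF) through the receptor tyrosine kinases PDGFRA and PDGFRB, build and organise the matrix, and on activation become myofibroblasts with smooth muscle actin fibres. Neural progenitors do not use this programme as their own, although PDGFRA marks the oligodendrocyte precursors that can arise from them. The lists hold no RNA, so neither expression nor the labelled cell types could be checked on transcripts.

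The fibroblast lines carried almost no H3K27me3 peaks on the 10 genes, while NPC carried broad peaks on Pdgfrb and Fbln2. In line A 0 of the 10 windows contained any peak, which allows a share of up to 30%, where 40.2% of all 20665 genes had at least 1 bp of peak. In line B 1 of 10 did (Fbln2; 10.0%, 95% exact binomial interval 0.25 to 44.5%), against 40.9% of all genes. In NPC 4 of 10 did (Pdgfrb, Fbln2, Postn and Fn1; 40%, interval 12.2 to 73.8%), against 31.9% of all genes, so that the NPC count lay near the background. With the records alone the counts were again 0, 1 and 4, against 28.4%, 28.2% and 22.3% of all genes. The intervals cover counting error only, and the genes were chosen and are not a random sample.

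Covered length separated the lists further than the counts did. Of the summed 419.2 kb of the 10 windows, peaks covered 0% (line A), 0.487% (line B) and 16.4% (NPC). Over the windows of all genes the same values were 10.9%, 9.28% and 5.38%. The members' median coverage was 0% in each list, as was that of all genes. In NPC 97.5% of the covered length (66.8 of 68.6 kb) lay on Pdgfrb and Fbln2, so the NPC sum describes those genes and not the list. The median window of the members was longer than that of all genes (45.2 kb against 27.5 kb), which gives a peak more room, although Thy1 (15.2 kb), Tagln (16.4 kb), Lum (17.2 kb) and Acta2 (25.3 kb) lay below the median of all genes.

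**Figure D1:**
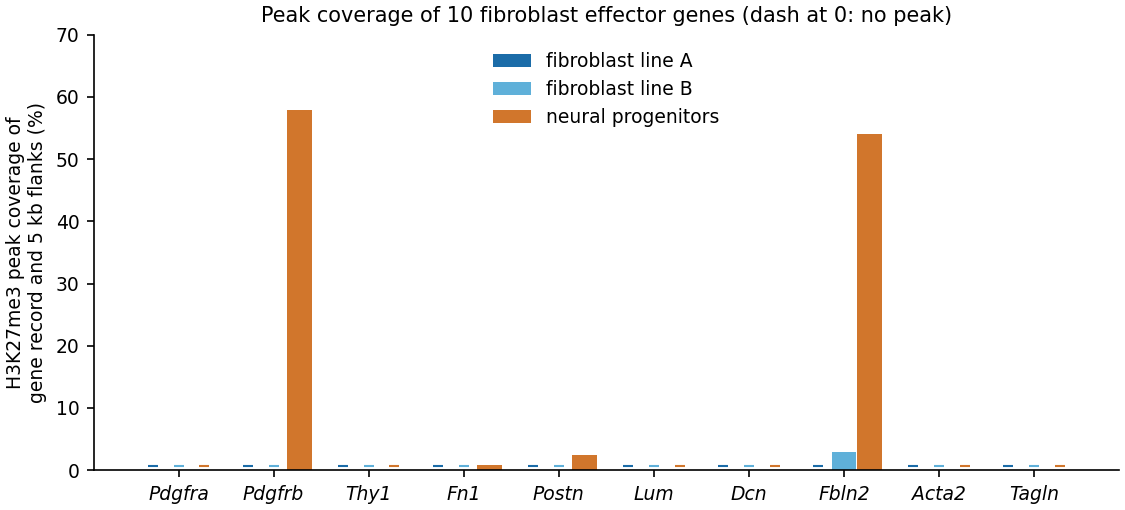
Percent of each gene window (record with 5 kb on each side) under H3K27me3 peaks, 1 bar per peak list, with a dash where no peak lies in the window. Only Pdgfrb (57.9%) and Fbln2 (54.1%) in neural progenitors rise above 3% of the window.

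Both PDGF receptors were free of peaks in the fibroblast lines, and they differed in NPC. Pdgfra (NCBI gene 18595, chromosome 5, 75151322 to 75198206) encodes a receptor for PDGF-A and PDGF-C and is a general marker of mesenchyme. Its window had 0 bp covered in each of the lists. Its surroundings were heavily covered in fibroblasts. Within 100 kb on either side of the record, peaks covered 122.9 kb of 200 kb (line A), 69.1 kb (line B) and 10.4 kb (NPC). Gsx2, the neighbour below, encodes a forebrain homeobox factor and was covered over 100% of its window in both fibroblast lines and over 39.2% in NPC. Farther above, beyond Kit, lies Kdr, which encodes a VEGF receptor of endothelial cells. It was covered over 80.5% (line A), 42.4% (line B) and 12.8% (NPC). The stretch without a peak that holds Pdgfra measured 76.1 kb (line A), 106.9 kb (line B) and 195.4 kb (NPC). On both sides and in each list it was bounded by peaks that touched no protein-coding record.

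Pdgfrb (gene 18596, chromosome 18, 61045127 to 61085067) encodes the PDGF-B receptor of pericytes, smooth muscle and fibroblasts. Its window had a covered length of 0 bp (line A), 0 bp (line B) and 28.9 kb (NPC). The NPC list alone marked it, over 57.9% of the window, and 614 of the 20665 genes (2.97%) were covered at least as far in that list. A share of at least 50% was reached by 3.91% of all genes in NPC. Coverage of at least 50% in NPC with 0 bp in both fibroblast lines was found at 83 genes (0.402% of all), Pdgfrb among them. The marked sequence consisted of 4 peaks. The first, 13.9 kb wide, ran across the lower end of the record from 5.62 kb outside it to 8.32 kb inside. The second, 13.9 kb wide, lay between 14.7 and 28.5 kb from that end, and the others were 1.38 and 0.352 kb wide.

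The NPC peaks at Pdgfrb stood at the end of a longer marked stretch. Below the record, NPC peaks covered 74.6 of 100 kb, against 4.32 kb of 100 kb above it. Slc6a7, a proline transporter gene of neurons, was covered over 54.9% of its window in NPC, the intestinal homeobox gene Cdx1 over 66.0% and the predicted gene Gm52351 over 69.4%, and each had 0% in both fibroblast lines. The widest NPC block within 100 kb, with gaps under 3 kb bridged, measured 141.1 kb and ended 55.5 kb below the record. It spanned the records of Arsi and Camk2a. Csf1r, the macrophage receptor gene next to Pdgfrb on the other side, had 5.78%, 5.83% and 7.15% covered in line A, line B and NPC. In the fibroblast lines the nearest peak to Pdgfrb was in Csf1r, 37.3 kb away in line A and 28.8 kb in line B.

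Thy1 (gene 21838, chromosome 9, 44043384 to 44048579) encodes CD90, a surface glycoprotein used to sort fibroblasts and also present on neurons and mouse T cells. It had 0 bp covered in each of the 3 lists. The distance from the record to the nearest peak was 28.1 kb (line A), 7.91 kb (line B) and 14.4 kb (NPC). None of its 3 neighbours on either side reached 50% coverage in any list. Within 100 kb the order of the lists was NPC (33.6 kb), line B (25.6 kb) and line A (7.92 kb).

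The 5 matrix genes fell into 3 patterns. Lum and Dcn had no peak anywhere near them, Fn1 and Postn had a single narrow peak in NPC, and Fbln2 was broadly covered in NPC.

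Fn1 (gene 14268, chromosome 1, 71585473 to 71653280) encodes fibronectin, the adhesive glycoprotein that cells bind through integrins. It had 0 bp (line A), 0 bp (line B) and 704 bp (NPC), 0.905% of its window. The NPC peak (71652693 to 71653396) lay across the higher end of the record, with 588 bp inside it. Of all genes, 30.2% were covered at least as far in NPC, where 31.9% had any peak. The amount is therefore small among the genes with a peak in that list. Above the record the next peak came after 557.6 kb (line A), 565.3 kb (line B) and 570.5 kb (NPC). Below it, line A peaks covered 42.3 of 100 kb, line B peaks 1.59 kb and NPC peaks 0.349 kb. Abca12, a keratinocyte lipid transporter gene on that side, was covered over 62.7% in line A, with 0% in both other lists.

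Postn (gene 50706, chromosome 3, 54359267 to 54391041) encodes periostin, a matricellular protein of activated fibroblasts, bone and valves. Its window had 0 bp (line A), 0 bp (line B) and 1016 bp (NPC). The NPC value was 2.43% of the window, which 26.4% of all genes reached. The NPC peak lay inside the record, 27.5 to 28.6 kb from its lower end. That end is where transcription begins, since the RefSeq promoter table gives the plus strand.

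Beside Postn the fibroblast lists held a long marked block that stopped short of the gene. The last peak below Postn ended at 54353063 (line A), at 54352599 (line B) and at 54353271 (NPC). These 3 ends lay within 672 bp of each other and 6.20, 6.67 and 6.00 kb from the record. In line A the joined block was 223.2 kb long and took in Trpc4, a cation channel gene covered over 96.9% of its window. In line B the last joined block was 21.6 kb long, and Trpc4 was covered over 63.6%. In NPC Trpc4 had 0% covered and the last peak was 2.14 kb wide. Farther below, Frem2, an epithelial basement membrane gene, was covered over 82.2% (line A), 79.4% (line B) and 13.8% (NPC). Above Postn neither fibroblast line had a peak for 421.7 kb, and their next peaks started 10 bp apart, at 54812763 in line A and 54812753 in line B. In NPC the next one was a peak of 0.401 kb, 33.3 kb away.

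Lum and Dcn lie beside each other on chromosome 10 and encode lumican and decorin, small leucine-rich proteoglycans that bind collagen and set fibril width. Lum (gene 17022, 97565501 to 97572703) and Dcn (gene 13179, 97479500 to 97518163) had 0 bp in line A, line B and NPC, and no list had a peak within 100 kb of either. A single stretch without peaks held both genes and measured 433.1 kb (line A), 332.7 kb (line B) and 2985 kb (NPC). In NPC only 2.37% of all genes lay as far from a peak as Lum (769.8 kb) and 2.84% as far as Dcn (683.8 kb). In the fibroblast lines 12.4 to 15.0% of genes lay as far. The same stretch holds Kera and Epyc, the cornea and cartilage members of this proteoglycan cluster, which had 0% covered in each list. The stretch was therefore not limited to the genes known from fibroblasts.

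Fbln2 (gene 14115, chromosome 6, 91212460 to 91272540) encodes fibulin-2, which binds fibronectin and elastic fibres. It had a covered length of 0 bp (line A), 2.04 kb (line B) and 37.9 kb (NPC). These were 2.92% of the window in line B and 54.1% in NPC. In line B 32.9% of all genes were covered at least as far, and in NPC 3.45% (712 genes). The line B peaks were 3 narrow ones of 832, 813 and 398 bp, between 24.5 and 30.6 kb from the lower end of the record. All of their 2043 bp lay under the widest NPC peak of the gene, 13.8 kb (91232953 to 91246711), and made up 100% of the line B and 5.39% of the NPC coverage. The NPC coverage was in 9 peaks spread over the whole gene, from 8.50 kb below the record to 58.0 kb inside it.

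Fbln2 also stood beside blocks of the fibroblast lists. Wnt7a, a Wnt ligand gene above it, was covered over 74.8% (line A), 42.9% (line B) and 10.6% (NPC). The block on that side began 9.51 kb from the Fbln2 record in line A (89.0 kb long) and 11.6 kb from it in line B (79.2 kb long). Below, the nuclear pore gene Nup210 was covered over 79.1% (line A), 0.197% (line B) and 0% (NPC). Hdac11, which lies between Nup210 and Fbln2, was covered over 6.75% (line A), 0% (line B) and 30.9% (NPC). Within 100 kb on both sides, peaks covered 113.4 kb (line A), 83.0 kb (line B) and 56.4 kb (NPC). Of the NPC length, 47.7 kb lay below the record and 8.73 kb above it, so the NPC peaks were not confined to Fbln2.

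**Figure D2:**
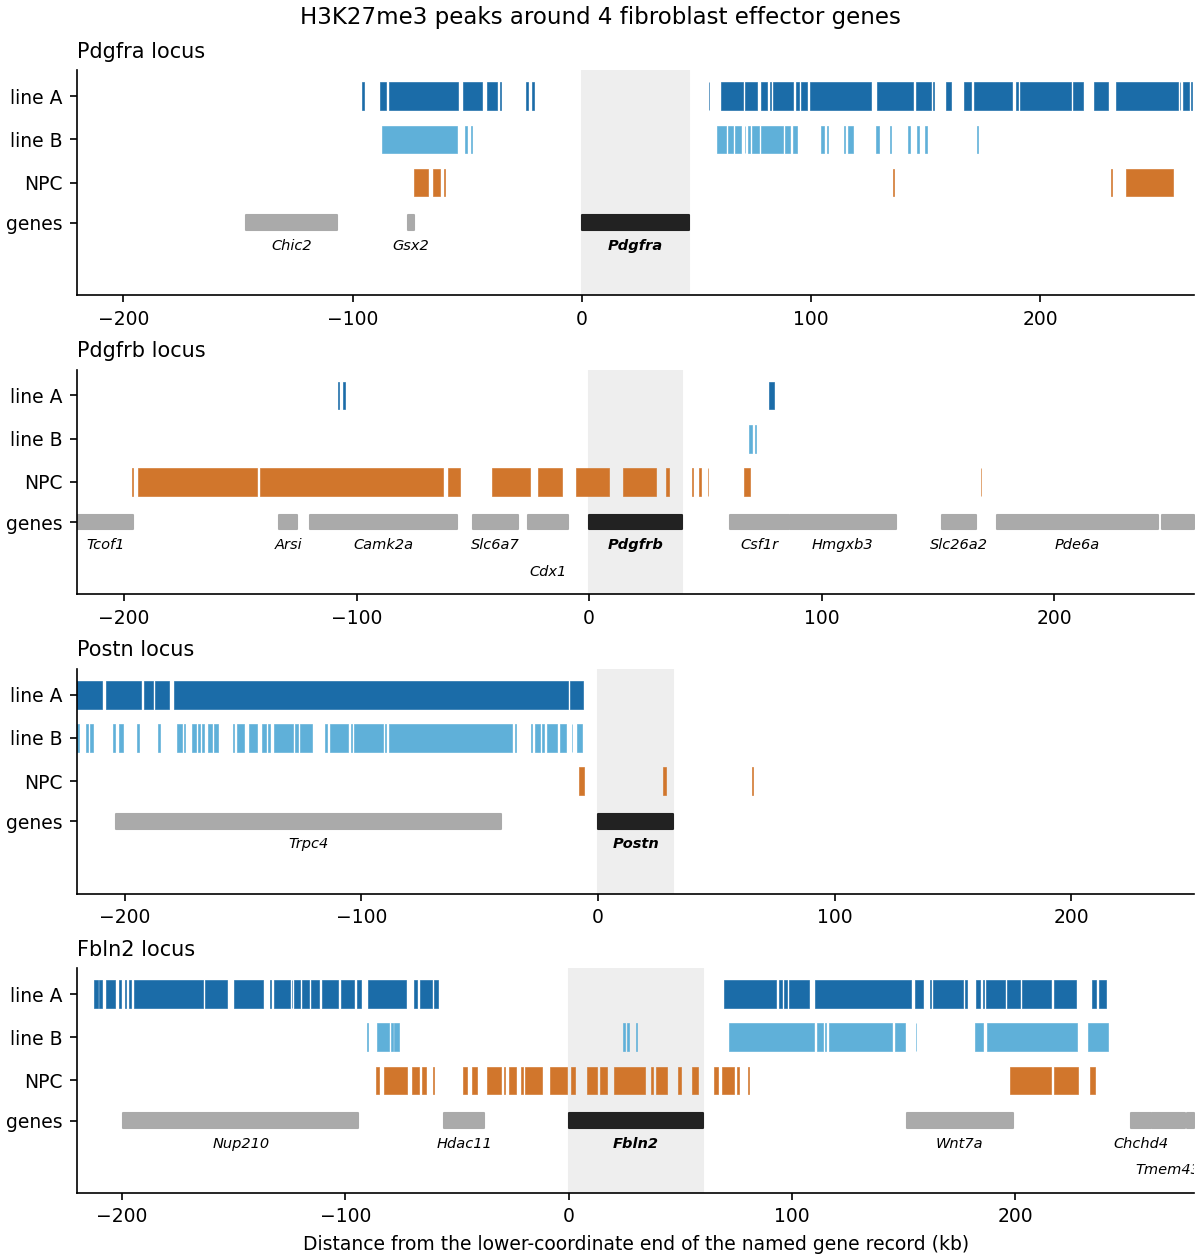
Peaks of the 3 lists (coloured bars) and protein-coding gene records (grey, predicted ones left out; the named gene black and shaded) around Pdgfra, Pdgfrb, Postn and Fbln2, by distance in kb from the lower end of the named record. Fibroblast peaks lie on both sides of Pdgfra and Fbln2 and below Postn, and leave the records almost free (2.04 kb of line B peaks in Fbln2), while NPC peaks cross Pdgfrb and Fbln2.

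The sequence just before the start of transcription could be read for 4 of the 10 genes, Pdgfra, Postn (2 starts), Fbln2 and Acta2, from a RefSeq promoter table of build GRCm38.p6, the assembly of mm10. No peak of any list covered these 5 stretches of 250 bases. Over 20085 starts of 16457 genes the share of such stretches covered was 13.1% (line A), 14.4% (line B) and 9.75% (NPC). At such shares 5 stretches, 2 of them from Postn, are too few to tell a lack of peaks from the background. Pdgfrb and Fn1, where an NPC peak crosses an end of the record, were not among the 4 genes. At Fbln2 the stretch lay in a gap between NPC peaks, 605 bp above the end of the first and 613 bp below the start of the second. At Postn the stretch before the second start, which is 1.84 kb inside the record, lay 7793 bp above the edge of the line A block. These stretches are printed because the first lies in a gap between NPC peaks, the second lies on the free side of a fibroblast block edge, and the third belongs to a gene whose flanks hold fibroblast blocks and whose window holds none. The Pdgfra stretch itself lay 21435 bp from the nearest peak of line A and 48597 bp from that of line B. They run 5′ to 3′ on the plus strand, with each CpG, the dinucleotide that vertebrate Polycomb targets are often rich in, in capitals. They are Fbln2 at chr6:91212514-91212763, Postn (second start) at chr3:54360857-54361106 and Pdgfra at chr5:75152001-75152250.
Fbln2: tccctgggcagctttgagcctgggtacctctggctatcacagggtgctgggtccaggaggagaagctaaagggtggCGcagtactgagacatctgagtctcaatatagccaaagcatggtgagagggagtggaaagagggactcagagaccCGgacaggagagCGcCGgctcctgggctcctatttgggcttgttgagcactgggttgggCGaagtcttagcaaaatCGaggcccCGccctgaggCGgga
Postn: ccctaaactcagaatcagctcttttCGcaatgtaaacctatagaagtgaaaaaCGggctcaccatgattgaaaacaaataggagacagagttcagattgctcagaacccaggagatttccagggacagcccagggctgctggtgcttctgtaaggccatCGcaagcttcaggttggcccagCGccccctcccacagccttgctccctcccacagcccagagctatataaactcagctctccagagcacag
Pdgfra: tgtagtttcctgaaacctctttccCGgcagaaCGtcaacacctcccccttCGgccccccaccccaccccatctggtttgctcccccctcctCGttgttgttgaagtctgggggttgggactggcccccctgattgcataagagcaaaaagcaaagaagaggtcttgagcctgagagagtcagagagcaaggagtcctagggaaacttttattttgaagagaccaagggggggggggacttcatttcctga

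The CpG counts lay at 8 or below. The letters CG, which read the same on both strands, occurred 8 times before Fbln2, 4 times before Postn and 4 times before Pdgfra, with a median of 10 over all starts. The first Postn start held 3 and Acta2 held 4. At least 8 stood in 56.8% of all stretches and at least 4 in 71.9%, so each of the 5 lay below the median, Fbln2 close to it. A count of CG in this window says nothing of the rest of the gene.

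The contractile genes had no peak in any list. Acta2 (gene 11475, chromosome 19, 34240336 to 34255585) encodes smooth muscle alpha-actin, the usual marker of myofibroblasts, and had 0 bp in line A, line B and NPC. The distance to the nearest peak was 52.5 kb (line A), 109.6 kb (line B) and 98.3 kb (NPC). Among its neighbours Lipm, a lipase gene of keratinocytes, was covered over 65.7% (line A), 0% (line B) and 14.5% (NPC), and Ch25h, the cholesterol 25-hydroxylase gene, over 0%, 16.5% and 39.2%. Tagln (gene 21345, chromosome 9, 45929628 to 45936058) encodes transgelin (SM22), an actin-binding protein of smooth muscle, and also had 0 bp in each list. It lay in a stretch without peaks of 485.9 kb (line A), 470.0 kb (line B) and 474.8 kb (NPC), and its 3 neighbours on each side, from Bace1 to Sik3, had 0% covered throughout. The stretch around Tagln had nearly the same length in all 3 lists.

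Distance to the nearest peak differed widely among the members. The median over the 10 genes was 36.5 kb in line A (6.20 to 189.2 kb), 47.6 kb in line B (0 to 169.2 kb) and 37.0 kb in NPC (0 to 769.8 kb). Over all genes the medians were 10.3, 10.3 and 25.7 kb. Postn, Pdgfra and Fbln2 lay within 10 kb of a line A peak, as did Postn, Thy1 and Fbln2 for line B. With the window widened to 10 kb on each side, 3 of 10 genes therefore had a peak in each fibroblast line (49.5% and 49.7% of all genes), and 4 of 10 in NPC (37.9%). At 25 kb the counts were 3, 4 and 5 of 10, against 62.8%, 63.5% and 49.6%.

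**Figure D3:**
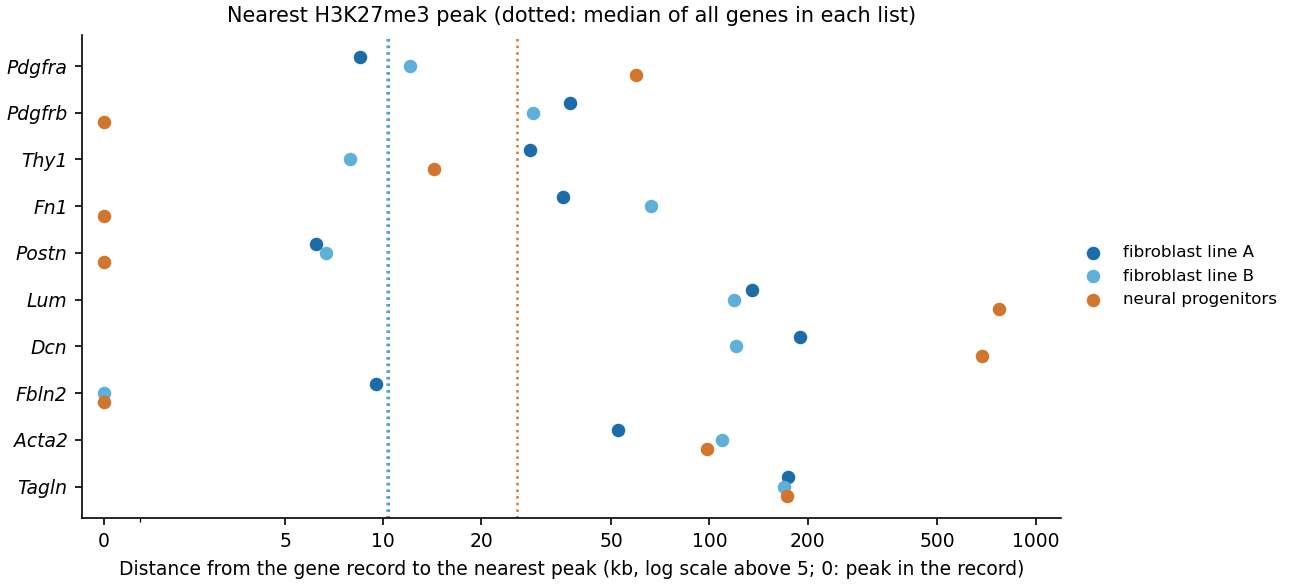
Distance in kb from each gene record to the nearest peak in each list, on an axis that is logarithmic above 5 kb, with 0 for a peak inside the record and dotted lines at the median of all genes (10.3, 10.3 and 25.7 kb). Lum, Dcn and Tagln lie over 100 kb from a peak in every list, and Postn lies 6.20 and 6.67 kb from one in the fibroblast lines.

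Coverage around the members was low near the records and higher farther out in the fibroblast lists. In line A it was 0% of the records and 0% of the first 5 kb, 4.58% between 5 and 10 kb, 13.7% between 10 and 25 kb, 18.6% between 25 and 50 kb and 24.3% between 50 and 100 kb. Over all genes it went from 10.5% of the records to 15.3% between 50 and 100 kb. In line B it was 0.640% of the records, 0% of the first 5 kb, 2.40% and 10.6% in the next rings, 15.7% between 25 and 50 kb and 14.3% between 50 and 100 kb. Over all genes line B had 8.51% of the records and 14.1% of the outermost ring. In NPC coverage was highest in the records, at 18.4%, and lay between 7.28% and 10.5% in the rings, with 10.0% between 50 and 100 kb. Over all genes the NPC records had 4.95% and the outermost ring 6.89%. These NPC values rested on few genes too. Pdgfrb and Fbln2 held 97.5% of the NPC coverage in the 10 windows. With Thy1 they held 92.0% of the 183.6 kb covered within 100 kb of the records. The coverage farther out in the fibroblast lists also rested on few genes. Pdgfra, Fbln2 and Postn held 86.2% of the 382.1 kb covered within 100 kb in line A and 88.6% of the 255.5 kb in line B, while Lum, Dcn and Tagln had 0 kb in each list. Lum and Dcn share part of these flanks.

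**Figure D4:**
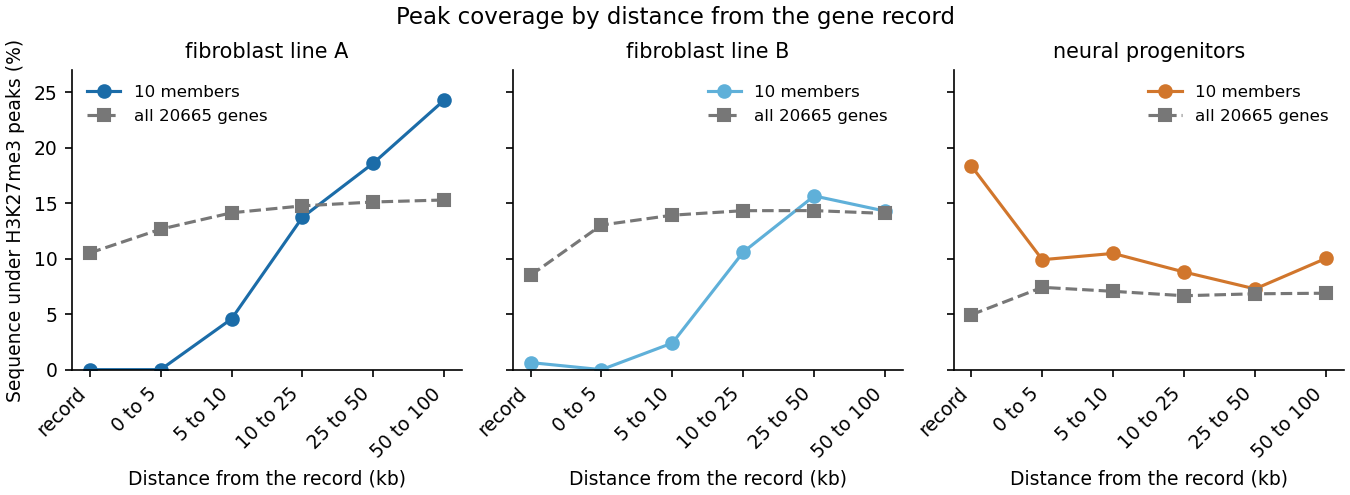
Percent of sequence under peaks in the gene records and in rings of growing distance on both sides, summed over the 10 members (circles) and over all 20665 genes (squares), 1 panel per list. The members start at 0% (line A) and 0.640% (line B) and reach 24.3% and 14.3% between 50 and 100 kb, whereas in neural progenitors the records, at 18.4%, lie above each ring (7.28 to 10.5%). In neural progenitors Pdgfrb and Fbln2 hold 97.5% of the coverage in the 10 windows.

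Neighbouring genes that are not members carried at least 1 bp of peak in each list at shares near or below those of all genes. Of the 54 protein-coding neighbours, up to 3 on each side of a member, a peak was present at 20 for line A (37.0%), at 17 for line B (31.5%) and at 17 for NPC (31.5%). Of all genes, 40.2%, 40.9% and 31.9% had a peak by the same rule. At least 50% coverage was found at 8 of the 54 neighbours (line A), 3 (line B) and 3 (NPC), and at 9.98%, 9.71% and 3.91% of all genes. By that rule the share of neighbours was above that of all genes in line A and NPC and below it in line B, on few genes.

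Other genes of the same pathways and structures gave a mixed picture. The lists are short, and their counts stand beside 40.2% (line A), 40.9% (line B) and 31.9% (NPC) of all genes with a peak. Of the 4 PDGF ligand genes, the number with a peak was 3 (line A), 1 (line B) and 2 (NPC). Pdgfa was covered over 29.6%, 11.8% and 0% of its window in line A, line B and NPC, Pdgfb over 26.4%, 0% and 5.60%, and Pdgfd over 0%, 0% and 0.521%. Of 10 related receptor kinase genes, 6, 7 and 7 had a peak. Among them the blood receptor gene Flt3 was covered over 13.8%, 61.4% and 1.80%, and the angiopoietin receptor gene Tek over 38.4%, 0.651% and 3.97%. Other receptors of blood and vessel cells varied as well. The VEGF receptor gene Flt1 was covered over 0%, 1.53% and 5.69%, and Flt4 over 58.3%, 84.2% and 45.8%. The stem cell factor receptor gene Kit, like Tek, was covered most in line A (32.8%, 0% and 10.5%).

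Among matrix genes the counts differed by family. Of all genes, 40.2% (line A), 40.9% (line B) and 31.9% (NPC) had a peak. Of 10 fibroblast collagen genes, the number with a peak was 2 (line A), 3 (line B) and 5 (NPC). Col1a1, Col1a2 and Col3a1 had 0% covered in NPC and line B, and 3.33%, 0% and 0% in line A. Col6a3, a chain of the beaded filaments of collagen VI, was covered over 42.1% in NPC and 0% in both fibroblast lines, Col5a1, of fibril-starting collagen V, over 23.9% and 0%, and Col14a1 over 0%, 7.82% and 5.26% in line A, line B and NPC. Of 20 fibulin, fibrillin and matricellular genes, 2, 5 and 5 had a peak. Efemp1 (fibulin-3) was covered over 26% in NPC alone, Fbn2 (fibrillin-2) over 7.25% in line B alone, and Eln (elastin) over 1.77%, 67.1% and 13.0%. Thbs1, Thbs2 and Lox were also covered in NPC alone, over 45.3%, 18.6% and 8.39%, and Fbln7 in line B alone, over 22.9%. Of 10 small leucine-rich proteoglycan genes other than Lum and Dcn, 4, 2 and 4 had a peak. Fmod (fibromodulin), Prelp and Optc, which lie beside each other and can share peaks, were covered over 78.9%, 57.1% and 67.4% in NPC, against 9.63%, 7.22% and 20% in line A and 8.26%, 0% and 0% in line B.

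Some contractile relatives of Acta2 and Tagln had peaks in the fibroblast lists and others had none. Of 14 smooth muscle contractile genes, the number with a peak was 7 (line A), 8 (line B) and 4 (NPC), which is 50%, 57.1% and 28.6% beside 40.2%, 40.9% and 31.9% of all genes. Cnn2, Tpm1, Cald1 and Tagln2 had 0% covered in each list, as Acta2 and Tagln did. Actg2, the enteric smooth muscle actin gene, was covered over 49.4%, 46.4% and 10.2%, the smooth muscle myosin gene Myh11 over 19.8%, 41.1% and 0.731%, and the myosin kinase gene Mylk over 0%, 11% and 2.43%. Of 15 genes for fibronectin receptors and mesenchymal surface proteins, 3, 6 and 3 had a peak. Itga4, an integrin chain that binds fibronectin, was covered over 48.0%, 2.18% and 0%, Itga8 over 2.90%, 14.5% and 0%, and Fap, a protease of activated fibroblasts, over 0%, 29.7% and 0%. The 3 genes with a peak in NPC were Mcam (21.5%), Ly6a (10.4%) and Cspg4 (1.64%), each with 0% in both fibroblast lines.

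Markers of other cell types carried peaks in the fibroblast lists at most loci. The shares of all genes with a peak were 40.2% (line A), 40.9% (line B) and 31.9% (NPC). Of 15 neural progenitor and glial genes, peaks were present at 11 for line A and 13 for line B, with median coverage of 61.0% and 64.6%, against 5 genes and 0% for NPC. Pax6, a regulator of neural progenitors, was covered over 68.2%, 74.3% and 0%, Prom1 over 52.9%, 57.0% and 3.47%, and the astrocyte enzyme gene Aldh1l1 over 73.1%, 5.44% and 0%. Of 14 epithelial genes 13, 9 and 9 had a peak, with Esrp1, a splicing factor of epithelia, at 85.9%, 79.9% and 17.2%, Dsp (desmoplakin) at 16.9%, 53.7% and 15.4%, and Grhl2 at 10.3%, 14.2% and 0%. Of 12 endothelial genes 8, 9 and 7 had one, with Vwf (von Willebrand factor) at 45.7%, 53.7% and 23.2%. Not all of these markers were covered most in a fibroblast line. The epithelial gene Krt8 was covered over 15.2%, 0% and 77.7%, and the endothelial gene Sox17 over 67.6%, 14.1% and 93.7%. Trp63, Emcn and Esam had 0% covered in each list. Of 14 housekeeping genes 0 had a peak in each list, which allows a share of up to 21.4%, so the line A count of 0 is shared with genes active in every cell. Differences between these gene lists and the 10 genes were not tested.

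**Figure D5:**
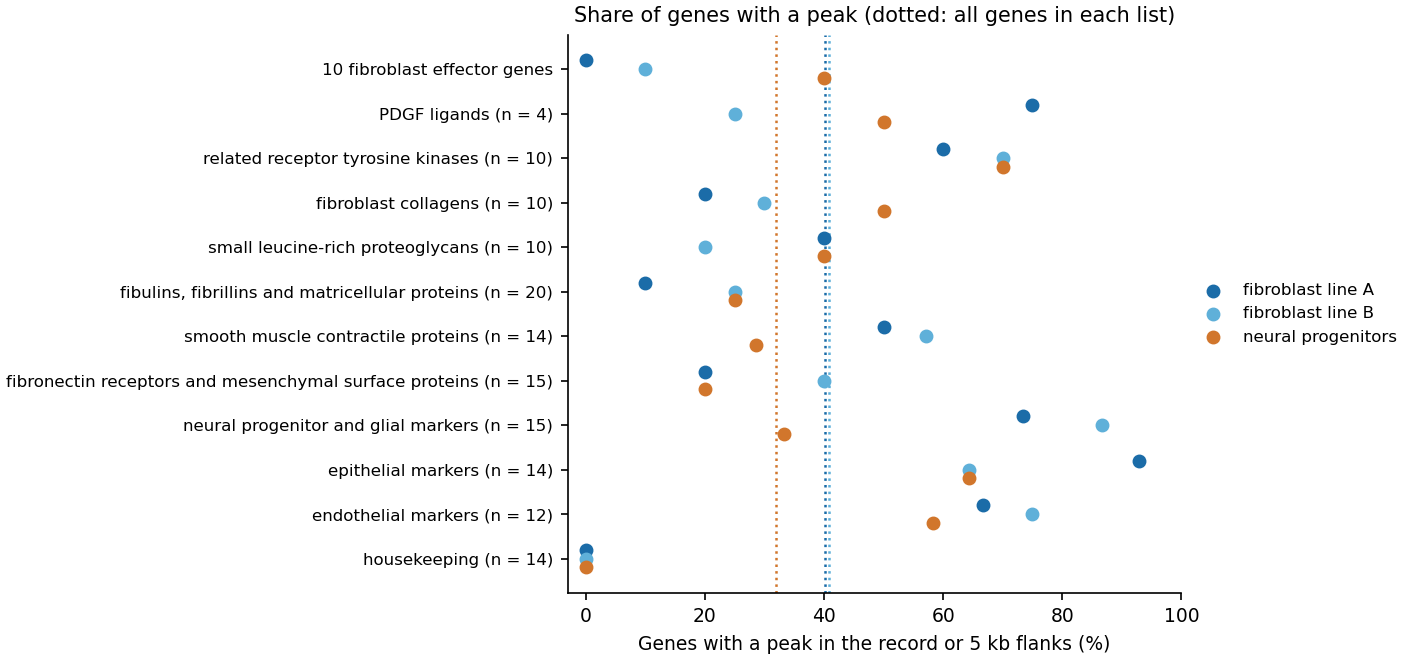
Percent of genes with a peak in the window, for the 10 fibroblast effector genes and 11 related or contrasting gene lists, 1 point per peak list, with dotted lines at the share of all genes (40.2, 40.9 and 31.9%). The 10 genes lie at 0, 10 and 40%, and neural progenitor and glial markers at 73.3, 86.7 and 33.3%.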

How the data were processed

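Per the labels, the H3K27me3 antibody was clone C36B11 (Cell Signaling Technology). The authors deposited 3 peak lists of the whole series with a chromosome, start and end per peak and no header, score or p value. MACS2 2.1.1.20160309 and Bowtie2 2.2.9 appear in the submitters' processing notes, with no role given, beside deepTools, DESeq2 and Picard. Builds dm6 and mm10 appear there too. The sources used here do not say how each list was called (libraries, pooling, control and threshold). The lists hold autosomal peaks only.

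Peak starts were read as 0-based and are printed 1-based. Covered bases were summed over each record of a RefSeq table of GRCm38.p6 (20665 autosomal of 21900 protein-coding records) with 5 kb flanks, and a gene had a peak where at least 1 bp was covered. Blocks join peaks less than 3 kb apart. Promoter stretches were the 250 bases before a start, and strand was used only where that table gave it. Python 3.11.15 with numpy, pandas and scipy was used. The functions were tested on 200 simulated peak sets, and all 200 equalled a count base by base. Intervals are exact binomial (Clopper-Pearson, 95%), and a count of 0 was given a limit of 3 counts.

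All 10 genes were reported. Also named were, per related list, up to 3 genes with the most covered bases in any peak list, and neighbours (3 records on each side) with at least 50% covered in any list. Neighbours at block edges or in a stretch without peaks (Arsi, Camk2a, Csf1r, Ch25h, Kera, Epyc, Bace1 and Sik3) were named with their values already seen. So were the list genes Flt1, Flt4, Kit, Col1a1, Col1a2, Col3a1, Cnn2, Tpm1, Cald1 and Tagln2. The same holds for the neighbour Hdac11 and the list genes Thbs1, Thbs2, Lox, Fbln7, Mcam, Ly6a and Cspg4. It also holds for Krt8, Sox17, Trp63, Emcn and Esam. The members, gene lists and tests were chosen with earlier results of these data known. No test between groups was run, because the lists hold no value per library.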

Additional observations from a re-analysis of the deposited data

How the results depend on the processing

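The count of members with a peak was recomputed under 9 alternatives. In line A it was 0 under 7 of them and 3 with flanks of 10 kb or 25 kb. In line B (1 of 10) it was 3 with 10 kb and 4 with 25 kb. It was 0 with 2 kb around either end of the record, with at least 10% of the window covered, with peaks at least as wide as the median of their list, and with the 22403 widest peaks of each list. In NPC (4 of 10) it was 2 under those last 3 settings, where Pdgfrb and Fbln2 stayed, and within 1.5 times of 4 otherwise (3 to 5). Records alone, flanks of 2 kb and joined peaks changed none of the 3 counts. Of 240 values of single genes, 193 lay within the binomial interval of the value reported and 47 did not. Of the 193, 188 were 0 beside 0, and the interval takes bases as independent, which they are not, so this tally does not measure stability. Depth is unknown, so no value can be set against it. No paired analysis was possible because the peak lists carry no replicates, and leaving out a library was not possible for the same reason.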
